A study of Homo sapiens with 6 samples.

Results

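The genes described here belong to the Wnt pathway: the feedback gene AXIN2, the TCF/LEF transcription factors, and core and feedback genes around them. A list of 10 gene symbols was matched to the array's annotation, taking the probe set with the highest mean signal for each symbol. The 10 were AXIN1, AXIN2, TCF7, LEF1, CTNNB1, APC, GSK3B, NKD1, RNF43 and ZNRF3. There were 9 of them with a named probe set, 1 each, among 17709 named probe sets of 21448. TCF7 is not analysed here because none of the named probe sets carries its symbol. The list was chosen from earlier results of these same arrays, in which AXIN2 was among the genes lower with CXCL12. The changes of the 9 genes are therefore given as a description, with no test.

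RNA came from Jurkat cells, an established human line of T-cell acute lymphoblastic leukaemia. All cells were kept without serum for 90 min. The untreated group (n = 3 arrays) then received nothing, and the CXCL12 group (n = 3 arrays) received 100 ng/ml of this chemokine, the ligand of the receptor CXCR4, for 15 min. The untreated group is listed at 0 min, so a matched wait of 15 min cannot be assumed. Titles number the samples of each group as biological replicates, but whether they were separate cultures is not stated, so the intervals and p-values below reflect sample-to-sample spread that may be technical.

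In canonical Wnt signalling, a Wnt ligand binds a Frizzled receptor and an LRP co-receptor, and this stops a cytoplasmic complex of AXIN, APC, the kinase GSK3 and casein kinase from marking beta-catenin for destruction. Beta-catenin then enters the nucleus and binds TCF/LEF proteins on target genes. Some of those targets, AXIN2, NKD1, RNF43 and ZNRF3 among them, encode inhibitors of the pathway and close a negative feedback loop. TCF7 and LEF1 are also lineage factors of developing T cells.

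The arrays were alike in overall signal, with median log2 values from 6.18 to 6.22 and correlations between arrays from 0.979 to 0.991. Untreated replicate 1 had the lowest mean correlation with the other arrays, 0.982. T cell identity was visible in the RNA: 11 of 11 T cell markers, such as CD3E and LCK, had mean log2 signals of 8.26 to 11.4. Of markers of other lineages, 3 of 4 named B cell markers, 3 of 4 myeloid, 1 of 3 NK, 2 of 4 epithelial and 3 of 3 erythroid ones also lay above the limit for dim probe sets, the highest at 7.92. That limit was the 25th percentile of all probe set means, a log2 signal of 4.44. EGR1 and CD69 were the 2 of 16086 tested probe sets past the adjusted limma threshold.

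AXIN2, the scaffold protein that beta-catenin induces and that limits beta-catenin in turn, had a lower signal in all 3 CXCL12 arrays than in any untreated array. Its log2 signal was 5.57, 5.40 and 5.09 in untreated replicates 1 to 3 and 4.75, 4.72 and 4.67 in CXCL12 replicates 1 to 3. The groups did not overlap: 0.34 separated the lowest untreated from the highest CXCL12 array. The untreated arrays spread over 0.48 and the CXCL12 arrays over 0.08. The group means were 5.35 ± 0.25 and 4.71 ± 0.04 (SD, n = 3 each), a log2 difference of -0.64 (SE 0.14, 95% interval -0.95 to -0.34), or 1.56-fold lower with CXCL12. This was the 4th lowest change among the 16086 probe sets tested. The values chose this gene, so its place in that order supports nothing.

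AXIN2 lay close to the dim limit. Its mean over the 6 arrays was 0.59 above the dim limit and its lowest array, CXCL12 replicate 3, was 0.22 above it. RNF43, at 0.53 above the limit, was the only one of the 9 genes closer to it, and none of the 9 lay below it. All 6 AXIN2 values were above the limit. Markers of other lineages also lay above it, near the AXIN2 mean of 5.03. Among them were the erythroid genes HBB (4.97) and SLC4A1 (5.19) and the myeloid gene ITGAM (5.01). The AXIN2 mean with CXCL12, 4.71, lay below the means of all 3 erythroid markers. The markers of other lineages ran from 2.59, below the limit, to 7.92. A signal above the limit therefore does not by itself show expression. Whether the AXIN2 signal was background was not tested. In a cell line measured in bulk, fewer cells with a transcript and less transcript per cell cannot be told apart.

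**Figure D1:**
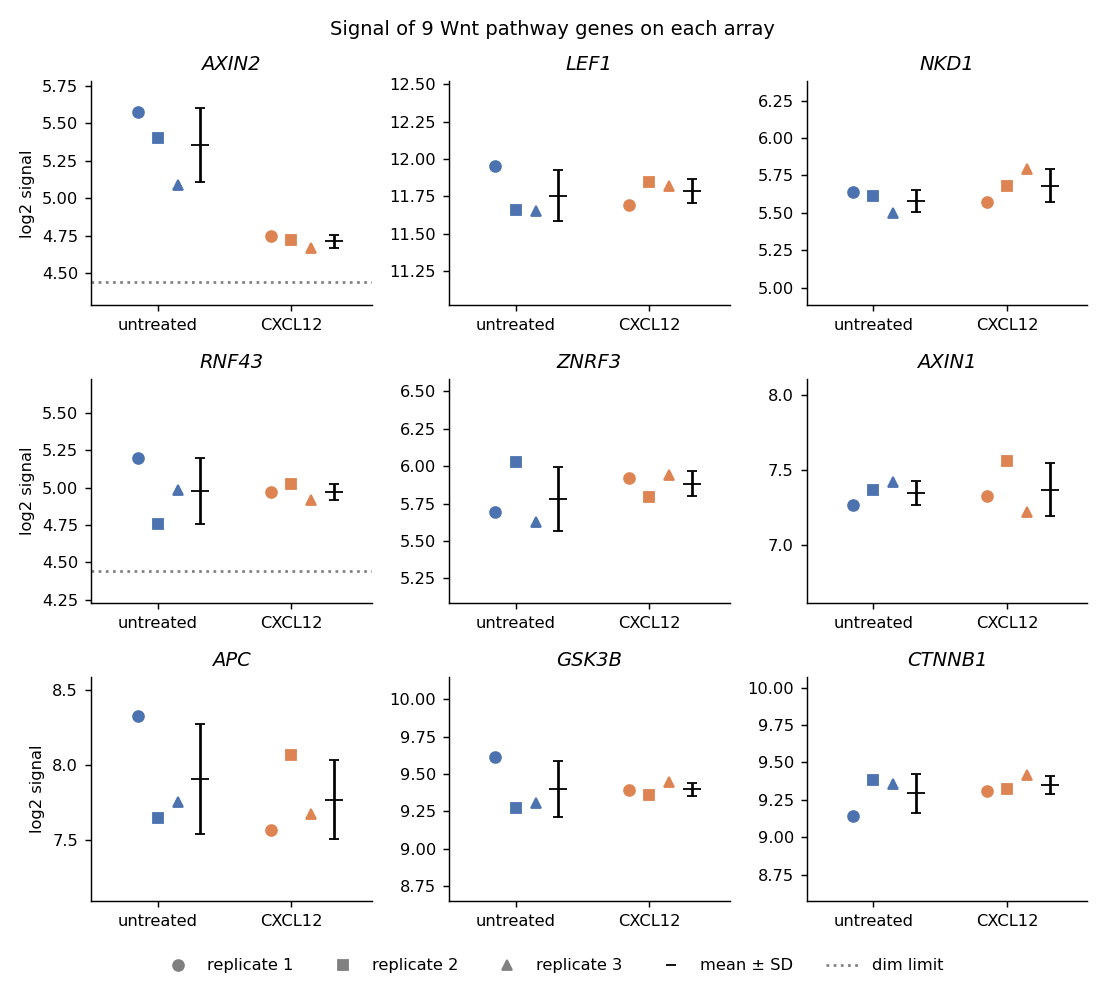
Log2 signal (y axis, the same span of 1.5 in every panel) of the 9 genes in untreated (blue) and CXCL12 (orange) arrays, with 1 point per array, its shape giving the replicate number, and the group mean ± SD (n = 3) in black; the dotted line is the dim limit of 4.44. AXIN2 is the 1 gene whose groups do not overlap, and untreated replicate 1 is the highest array for 5 of the 9 genes. It is the highest or the lowest array for 6 of the 9, and for 49.2% of all probe sets tested.

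Non-overlapping groups were found for 1 of the 9 genes (AXIN2), and for 9.54% of all probe sets tested (4.48% lower and 5.05% higher). Past the adjusted limma threshold were 0 of the 9, against 0.0124% of all probe sets, and 1 of 9 (AXIN2) had an unadjusted limma p under 0.05, against 4.73% (2.01% lower and 2.72% higher). Since the list was chosen on this contrast, nothing is read from these counts.

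LEF1, a DNA-binding partner of beta-catenin, had log2 signals of 11.95, 11.66 and 11.66 untreated, against 11.70, 11.85 and 11.82 with CXCL12. Untreated replicate 1 was the highest and the other untreated arrays were the lowest, so the groups overlapped. The log2 difference was 0.03 (95% interval -0.24 to 0.31).

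The other feedback genes had small differences. NKD1, which binds Dishevelled and dampens the signal, had log2 signals of 5.64, 5.61 and 5.50 untreated, against 5.57, 5.68 and 5.79 with CXCL12, a difference of 0.10 (95% interval -0.16 to 0.36). RNF43 and ZNRF3 are membrane ubiquitin ligases that remove Frizzled receptors from the cell surface. RNF43 had log2 signals of 5.20, 4.76 and 4.98 untreated, against 4.97, 5.03 and 4.92 with CXCL12, a difference of -0.01 (-0.30 to 0.29). All 3 CXCL12 values of RNF43 lay inside its untreated range. ZNRF3 had log2 signals of 5.69, 6.03 and 5.63 untreated, against 5.92, 5.79 and 5.94 with CXCL12, a difference of 0.10 (-0.19 to 0.40), and here too the CXCL12 arrays lay inside the untreated range. Differences between genes were not tested.

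AXIN1, GSK3B and APC of the destruction complex, and CTNNB1, had overlapping groups. AXIN1, the constitutive relative of AXIN2, had log2 signals of 7.26, 7.36 and 7.42 untreated, against 7.32, 7.56 and 7.22 with CXCL12, a difference of 0.02 (95% interval -0.26 to 0.30). Its highest and its lowest array were both CXCL12 arrays. GSK3B, the kinase that phosphorylates beta-catenin, had log2 signals of 9.61, 9.28 and 9.31 untreated, against 9.39, 9.36 and 9.45 with CXCL12, a difference of 0.00 (-0.28 to 0.28). CTNNB1, which encodes beta-catenin itself, had log2 signals of 9.14, 9.38 and 9.36 untreated, against 9.31, 9.32 and 9.41 with CXCL12, a difference of 0.05 (-0.21 to 0.32), with untreated replicate 1 as its lowest array.

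APC, the large scaffold that holds beta-catenin in the complex, varied most between replicates. It had log2 signals of 8.33, 7.65 and 7.75 untreated, against 7.57, 8.07 and 7.67 with CXCL12, with a pooled SD of 0.32 within groups. Untreated replicate 1 and CXCL12 replicate 2 were the high arrays and the other 4 lay between 7.57 and 7.75. The difference of -0.14 (95% interval -0.55 to 0.27) became 0.07 without untreated replicate 1.

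**Figure D2:**
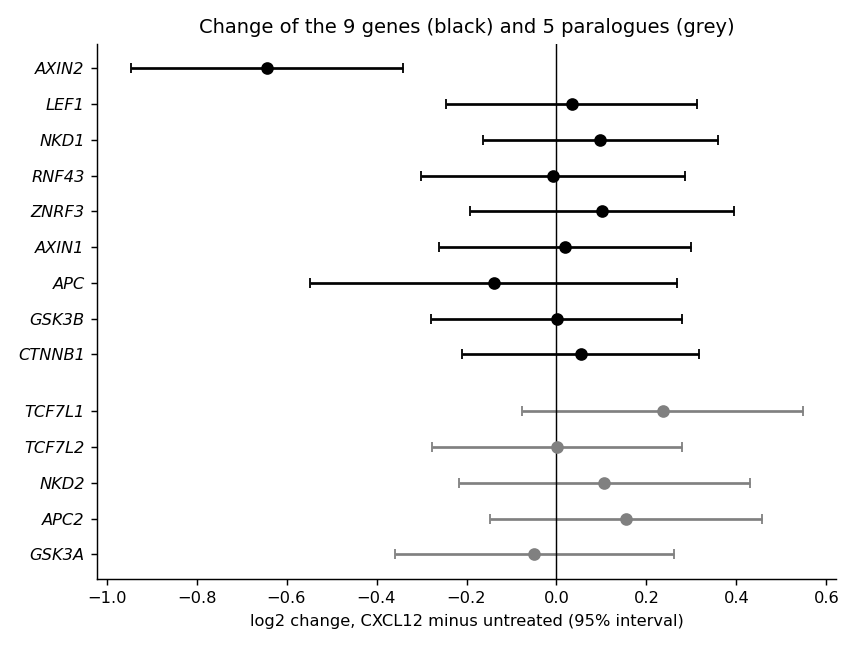
Log2 change (x axis, CXCL12 minus untreated, 3 arrays each) with its 95% limma interval for the 9 genes in black and for 5 paralogues of listed genes in grey. The intervals of all but AXIN2 include 0, and that of AXIN2 runs from -0.95 to -0.34; AXIN2 was among the values that chose the list.

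Single arrays were left out in turn. The AXIN2 difference was lowest (-0.78) without untreated replicate 3 and highest (-0.53) without untreated replicate 1, the array that stood apart. Without untreated replicate 1, LEF1 (0.13) and GSK3B (0.11) also had non-overlapping groups, both higher with CXCL12, so that 3 of 9 genes had them. In that comparison of 2 with 3 arrays 19.6% of all probe sets had non-overlapping groups. ZNRF3 was higher without overlap when untreated replicate 2 was left out (0.22) and NKD1 when CXCL12 replicate 1 was (0.15), where 19.7% and 17.7% of all probe sets did not overlap. RNF43 was at -0.12 without untreated replicate 2 and at 0.10 without untreated replicate 1.

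**Figure D3:**
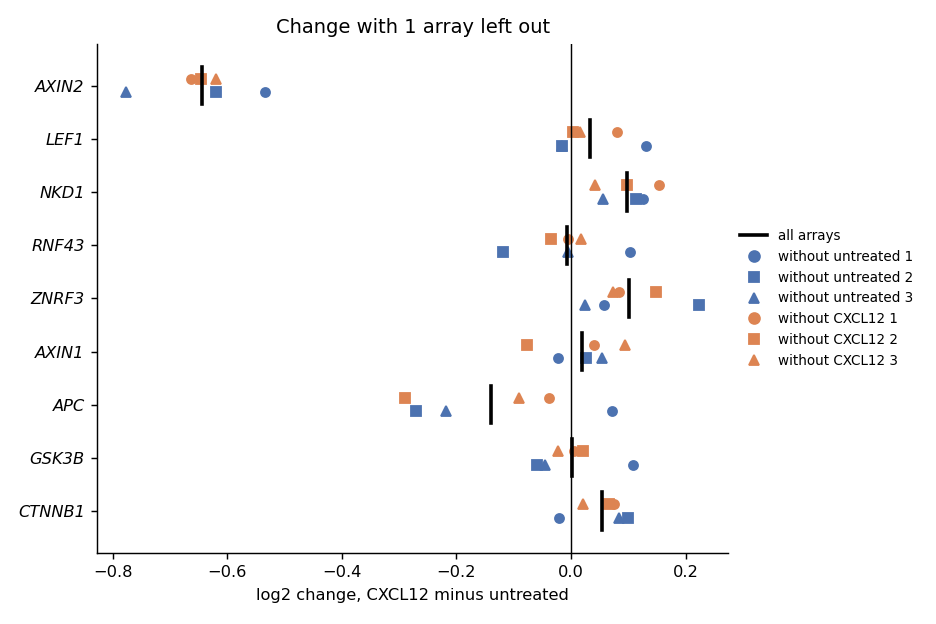
Log2 change (x axis, CXCL12 minus untreated) of the 9 genes with all 6 arrays (black bars) and with 1 array left out (blue, an untreated array; orange, a CXCL12 array; the shape gives the replicate number). AXIN2 lies between -0.78 and -0.53, and its sign could not turn because its groups do not overlap. APC moves from -0.14 to 0.07 without untreated replicate 1.

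The relatives of these genes were compared next. TCF7L1 and TCF7L2, the remaining TCF/LEF family members, had differences of 0.24 (95% interval -0.08 to 0.55) and 0.00 (-0.28 to 0.28). TCF7L1 had log2 signals of 5.15, 5.40 and 5.13 untreated, against 5.31, 5.73 and 5.36 with CXCL12, with untreated replicate 2 above CXCL12 replicates 1 and 3, and its difference was 0.10 without CXCL12 replicate 2. NKD2 had a difference of 0.11 (-0.22 to 0.43), APC2 0.15 (-0.15 to 0.46), or 0.02 without untreated replicate 1, and GSK3A -0.05 (-0.36 to 0.26). None of the 5 passed after adjustment over all probe sets (limma adjusted p from 0.996 to 0.999).

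Other genes of the pathway were taken in 6 lists by role, 139 genes in all, of which 132 had a named probe set and 107 were not dim. None of the 107 passed the limma adjusted threshold in either direction (adjusted p from 0.927 to 0.999), and 8 had an unadjusted p under 0.05, 4 higher and 4 lower, beside 4.73% of all probe sets (2.72% higher and 2.01% lower). Groups did not overlap for 15 of them (14.0%), 9 higher and 6 lower, beside 9.54% of all probe sets. Their median log2 difference was 0.0005, with 55 positive and 52 negative, beside a median of 0.0023 over all probe sets, of which 50.7% were positive. Their differences ran from -0.40 to 0.47. The filter used the mean over all arrays, and 3 of the 107 (WNT8A, FZD4 and TBXT) passed it with an untreated mean below the limit, only through their CXCL12 arrays; 1 of the 15 without overlap, FZD4, is among them.

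Among the Wnt ligands and their secretion factors, 11 of 15 measured genes had a positive and 4 a negative difference, with a median of 0.11 and 0 passing. WNT2 had the smallest p: it had log2 signals of 4.42, 4.60 and 4.64 untreated, against 5.21, 4.93 and 4.93 with CXCL12, a difference of 0.47 (SE 0.13, limma adjusted p = 0.927). All CXCL12 arrays were above the untreated ones, but untreated replicate 1 lay below the dim limit. WNT8A (0.22) and WNT7B (0.21) overlapped, and without CXCL12 replicate 1 they were at 0.13 and 0.07.

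Of 15 measured receptors and Dishevelled proteins, 6 differences were positive and 9 negative, with a median of -0.03 and 0 passing. The Frizzled receptor FZD4 had log2 signals of 4.12, 4.41 and 4.49 untreated, against 4.68, 4.89 and 4.79 with CXCL12, a difference of 0.44 (SE 0.13, limma adjusted p = 0.996). FZD7 was at 4.24, 4.76 and 4.71 against 5.06, 4.88 and 5.06, a difference of 0.43, or 0.27 without untreated replicate 1. Both receptors were higher in every CXCL12 array. For FZD4, 2 of 3 untreated arrays and the untreated mean of 4.34 lay below the dim limit, and for FZD7 untreated replicate 1 did. FZD1, a brighter Frizzled, differed by -0.20 without overlap (95% interval -0.46 to 0.05).

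Of 9 measured Wnt antagonists, 6 differences were positive and 3 negative, with a median of 0.09 and 0 passing. DKK2, of the Dickkopf family that binds the LRP co-receptors, had log2 signals of 5.22, 5.30 and 5.30 untreated, against 4.74, 5.22 and 4.64 with CXCL12, a difference of -0.40 (SE 0.15, limma adjusted p = 0.996). CXCL12 replicate 2, at 5.22, lay just below the lowest untreated array, so the separation rests on CXCL12 replicates 1 and 3. DKK4 differed by 0.31 and KREMEN1, a Dickkopf receptor, by -0.36, both with overlapping groups; KREMEN1 was at -0.21 without CXCL12 replicate 3.

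Of 22 measured partners of the destruction complex, 13 differences were positive and 9 negative, with a median of 0.01 and 0 passing. PPP2R5A, a regulatory subunit of phosphatase PP2A, differed by 0.24 without overlap (95% interval -0.02 to 0.49), and PPP2CA, its catalytic subunit, by -0.16, or -0.05 without untreated replicate 1. CSNK1A1, a casein kinase of the complex, differed by 0.10 without overlap (95% interval -0.15 to 0.34). Of 24 measured nuclear partners of beta-catenin, 9 were positive and 15 negative, with a median of -0.04 and 0 passing. TLE1, a Groucho corepressor that binds TCF/LEF proteins, had log2 signals of 7.30, 6.87 and 7.00 untreated, against 6.74, 6.72 and 6.80 with CXCL12, a difference of -0.30 (SE 0.13, limma adjusted p = 0.996), or -0.18 without untreated replicate 1. CDC73, a subunit of the PAF1 complex, differed by -0.21 with overlap, or -0.14 without CXCL12 replicate 1.

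Genes reported elsewhere as beta-catenin/TCF targets had differences on both sides of 0. Of 23 measured, 11 differences were positive and 12 negative, with a median of -0.03, and 0 passed. MYC, the growth-promoting transcription factor, had log2 signals of 9.70, 9.60 and 9.53 untreated, against 9.42, 9.25 and 9.27 with CXCL12. The MYC difference was -0.30 (SE 0.12, limma adjusted p = 0.996). MYC was the 1 measured gene of this list whose groups did not overlap, or 4.35% of them, beside 9.54% of all probe sets. CD44, an adhesion receptor, differed by -0.35 with untreated replicate 3 below CXCL12 replicate 1, or by -0.21 without untreated replicate 2. FGF20, a growth factor, differed by 0.27 with overlap, or 0.15 without CXCL12 replicate 2.

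**Figure D4:**
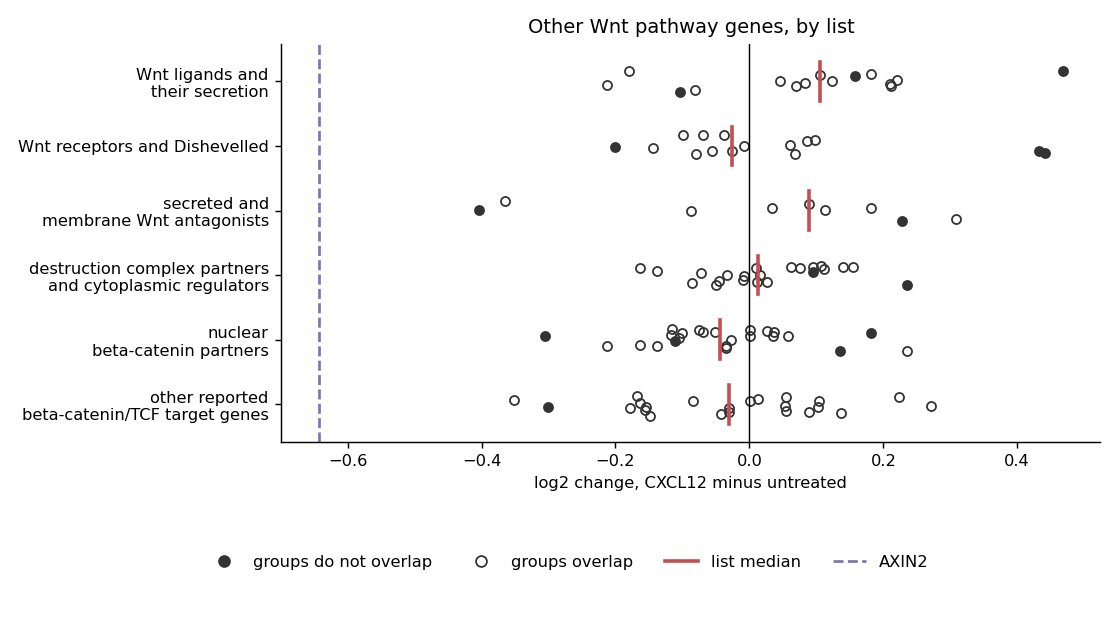
Log2 change (x axis, CXCL12 minus untreated) of the measured genes of 6 Wnt pathway lists, 1 point per gene, filled where the groups do not overlap; red bars are list medians and the dashed line is AXIN2 at -0.64. The list medians lie between -0.04 and 0.11, and AXIN2, a member of none of these lists and chosen for its low value, is drawn for scale.

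Promoter sequence was examined because TCF/LEF proteins act through a short DNA motif. Windows of 300 bases, from 250 before to 50 from the start site, came from RefSeq (GRCh38.p14). They matched 7 of the 10 listed genes, with 10 windows, and not AXIN2, NKD1 and ZNRF3. The motif was searched in 4 forms of 7 letters, the core CTTTG followed by AA, AT, TA or TT, on both strands, overlaps allowed. It occurred in 1 of the 10 windows (TCF7) and in 13.8% of all 35116 windows. The windows of LEF1, RNF43, CTNNB1, APC, GSK3B and AXIN1 did not hold these letters. Among the other Wnt genes, 16 of 145 windows held it. SP5, a zinc-finger repressor and widely used readout of the pathway, held 3 matches that do not overlap, ending 142, 103 and 78 bases before its start site. The stretches below are shown as the listed gene with a match and as the Wnt target with the 3 matches, which was picked for its sequence after its values were seen. Both are written on the gene's strand, with the motif in capitals (CTTTG reads as CAAAG where the match is on the opposite strand). SP5 lies at chr2:170715159-170715289 (+) and TCF7 at chr5:134123538-134123604 (+).
SP5: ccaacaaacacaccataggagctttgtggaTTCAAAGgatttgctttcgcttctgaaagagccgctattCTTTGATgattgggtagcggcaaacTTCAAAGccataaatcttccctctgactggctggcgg
TCF7: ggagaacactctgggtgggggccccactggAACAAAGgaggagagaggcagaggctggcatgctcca

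SP5 had log2 signals of 5.95, 5.73 and 5.82 untreated, against 6.05, 5.81 and 5.50 with CXCL12, a log2 difference of -0.04 (95% interval -0.37 to 0.28). Its CXCL12 arrays lay on both sides of the untreated ones. Over the table, 1320 tested genes with a match in a window had a median difference of -0.0060, with 4.70% lower and 5.30% higher without overlap. For the 9567 tested genes with windows and no match the median was -0.0038, with 4.82% lower and 4.32% higher. A match of these letters is a description and was not tested as a binding site.

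The array profiles most like that of AXIN2 were found by the root mean square difference between log2 values centred on their mean over 6 arrays, among 13446 named genes that were not dim. The 5 nearest were GCSAM, a germinal centre signalling protein (0.115), TCP10L (0.121), SCRT1, a zinc-finger repressor (0.125), METRN, a secreted neurotrophic factor (0.126), and PANX3, a pannexin channel (0.134). None is on the Wnt lists used here. Their differences ran from -0.59 (SCRT1) to -0.47 (PANX3), and 4 of them had groups without overlap, beside 9.54% of all probe sets. The 5 were picked for likeness to AXIN2, which was itself chosen on this contrast. Their low values with CXCL12 follow from that choice, and nothing is read from them. Untreated replicate 1, the array that stood apart, was the highest array for AXIN2 and for each of these 5 genes, and its part in the likeness was not tested. GCSAM had a CXCL12 mean of 4.41, below the dim limit, and passed the filter only through its untreated arrays. For LEF1 the 5 nearest were TXLNG (0.020), the Wnt co-receptor ROR1 (0.0278), HSPA5, the endoplasmic reticulum chaperone BiP (0.0305), ZMYND11 (0.0308) and ANKRD36B (0.0317), which has near-identical relatives and is therefore uncertain in identity. In each of these 5, as in LEF1, untreated replicate 1 was the highest array, and the differences between groups were 0.01 to 0.06. These genes too were picked for likeness, so nothing is read from the shared pattern.

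**Figure D5:**
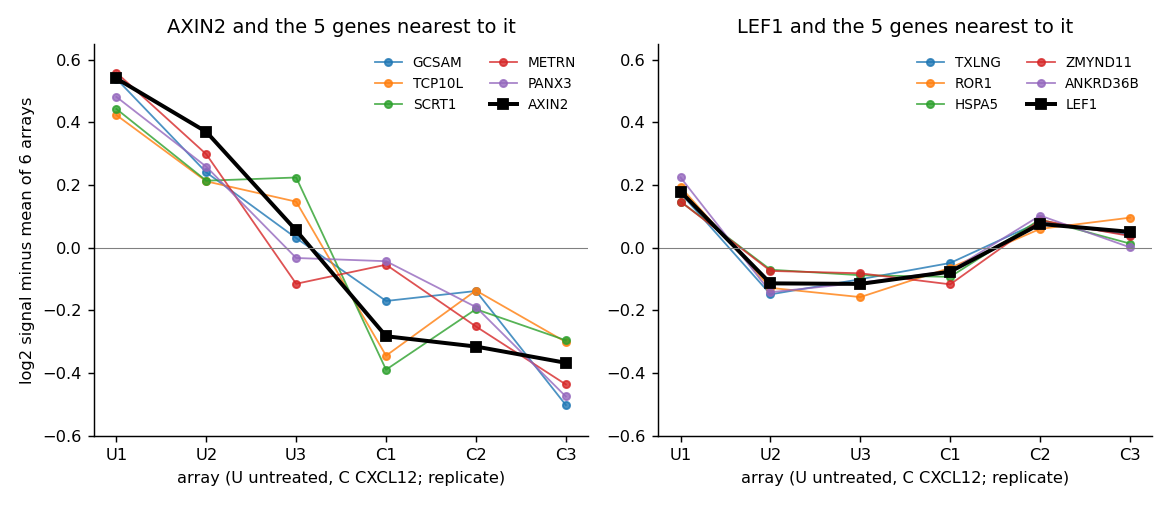
Log2 signal minus the mean of the 6 arrays (y axis) on each array (x axis; U untreated, C CXCL12, with the replicate number) for AXIN2 (left) and LEF1 (right), in black, and the 5 genes nearest to each; lines only join the points of a gene, since replicates have no order. Both genes and all their neighbours are highest in untreated replicate 1. AXIN2 and its 5 neighbours lie below their own mean in every CXCL12 array. The neighbours were picked for likeness over these 6 arrays, so the shared patterns follow from that choice.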

How the data were processed

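RNA from 6 Jurkat samples was measured on 6 Affymetrix arrays. The deposited values are on a log2 scale, 1 per probe set and array; per the submitters' processing notes, the authors used RMA (background correction, normalization between arrays and summary per probe set) and the Transcriptome Analysis Console. Versions, settings and genome build: not given in the sources used here. Gene symbols come from the platform's annotation and can be old.

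The values were not renormalized. Dim probe sets, those whose mean over 6 arrays fell under the 25th percentile, were left out, leaving 16086. limma 3.58.1 in R 4.3.3 (lmFit, eBayes, 2 groups of 3, no covariates, two-sided) was fitted to all of them, with Benjamini-Hochberg adjustment over all and a threshold of 0.05, after a test on simulated data. Differences are CXCL12 minus untreated. The number of arrays limits the precision.

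The members, the Wnt lists and the tests were chosen with earlier results of these data known. Named genes are the listed genes, 5 paralogues, the 3 smallest p per Wnt list, anything past the threshold and the 5 nearest profiles of AXIN2 and LEF1; SP5, and list genes named for overlap, came after their values were seen. Alternatives were other dim filters, renormalization, array weights, a replicate block, another (trended, robust) prior, averaging of probe sets, an unadjusted threshold and leaving out each array.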

Additional observations from a re-analysis of the deposited data

How the results depend on the processing

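Of 14 alternatives that gave an AXIN2 difference, 4 (no dim filter, the replicate block, the other prior and probe set averaging) cannot move it by construction. In the other 10 it stayed negative and within its pooled SD of 0.18 of the reported value. With single arrays left out, both were fixed in advance. The groups do not overlap, and dropping 1 of 3 arrays cannot shift a difference by a whole pooled SD. Array weights could not turn the sign either. AXIN2 was chosen on these values. Leaving out single arrays gave -0.78 to -0.53 and renormalization or array weights -0.68 to -0.55. Leaving out the lower 50% of probe sets (limit 6.19) removed AXIN2, NKD1, RNF43 and ZNRF3, and the count of listed genes with non-overlapping groups became 0 of 5. The share over all probe sets was not computed at that limit. With single arrays left out the count of listed genes was 1 to 3. Of all probe sets tested, 16.3% to 24.3% then did not overlap, beside 9.54% with all arrays. The other 8 genes gave 117 values under alternatives, of which 37 were identical to the reported ones and the other 80 differed by less than the pooled SD. For values with 1 array left out, a shift below the pooled SD was again fixed in advance. Of the 8 genes, 6 changed sign at least once, and NKD1 and ZNRF3 did not. The Wnt pathway genes called were 0 in each refit, and 8 under an unadjusted p. The medians of 4 of the 6 lists changed sign under at least 1 alternative; those of the ligands and the nuclear partners kept theirs. With the replicate block the AXIN2 difference was -0.64 and 0 Wnt list genes were called. The labels state no pairing, and around the group means, arrays with the same number correlated at -0.19, -0.11 and 0.11, so the numbers were not taken as pairs. For none of this was the cause tested. Signal near the dim limit restricts what can be said of AXIN2, RNF43, WNT2, WNT8A, FZD4, FZD7, DKK2, DKK4, TBXT, GCSAM, TCP10L and PANX3.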
